A study of Mus musculus with 10 samples.

Results

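The Ms4a genes encode small membrane proteins that cross the membrane several times and form a cluster on mouse chromosome 19. The genes described here were chosen by name, as members of this cluster: Ms4a3, Ms4a4a, Ms4a4b, Ms4a4c, Ms4a6b, Ms4a6c, Ms4a6d and Ms4a7. Of these 8 names, 7 have a row among the 24033 gene names used, and Ms4a4a is not analysed here. A filter on low values, at least 0.5 RPKM (reads scaled to gene length and to the library total) in at least 3 libraries, was passed by 13621 genes and by 5 of the 7 members. Ms4a4b and Ms4a3 did not pass it and are described by their values alone.

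RNA was measured in microglia, the brain's resident macrophages, that were pulled out with magnetic beads against the myeloid integrin CD11b. The mice were adult C57BL/6 animals aged 3 to 5 months. Wild type (WT, Trem2+/+) was represented by libraries 1 and 10 from females and 4 and 7 from males (n = 4). Heterozygotes (Het, Trem2+/-) gave libraries 5 and 11 from females and 8 from a male (n = 3), and knockouts (KO, Trem2-/-) gave library 6 from a female and 9 and 12 from males (n = 3). The series title sets the question in the context of haploinsufficiency, that is, whether loss of 1 Trem2 copy changes these cells; injury and tau pathology, which the title also names, are not labels of these 10 libraries. The part of Trem2 that the allele removes, and whether a library holds 1 mouse or a pool, were not given in the sources used here, so the tests set genotypes against the differences among these libraries, which may in part be technical.

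In people, common variants in the MS4A cluster are associated with the risk of Alzheimer disease and with the amount of soluble TREM2 in cerebrospinal fluid. TREM2 is a lipid-sensing receptor of microglia whose outer part is cut off by membrane proteases to give that soluble form, and MS4A4A protein has been found together with TREM2 in human macrophages. Mouse and human clusters do not match gene for gene: the mouse has several Ms4a4 and Ms4a6 genes where the human cluster has fewer.

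Library depth, as whole reads recovered from the RPKM values, was 16.92 M to 43.3 M (M, megareads), with 4 libraries (WT 10, Het 11, KO 9 and KO 12) above 30 M. Trem2 itself, on chromosome 17, followed the labels, at 191.5 ± 31.1 RPKM in WT (SD, n = 4), 93.9 ± 9.98 in Het (SD, n = 3) and 24.5 ± 3.52 in KO libraries (SD, n = 3). The 9 microglia markers were all tested and summed to 7424 to 9705 RPKM per library. KO library 6 stood apart: its 9 listed neutrophil markers summed to 2244 RPKM, against 100.1 to 372 in the other 9 libraries. Results that rest on this library are given with and without it. Neutrophils also carry CD11b, which the beads select.

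Coordinates are from the GENCODE M21 annotation of GRCm38. The cluster runs over 679 kb of chromosome 19, from 10962293 to 11640851. In order along the chromosome, the members are Ms4a7 (11321039 to 11336146, minus strand), Ms4a4a (11375523 to 11392790, plus), Ms4a4c (11404770 to 11427246, plus), Ms4a4b (11443553 to 11467055, plus), Ms4a6c (11469366 to 11482192, plus), Ms4a6b (11516512 to 11531256, plus), Ms4a6d (11586604 to 11604849, minus) and Ms4a3 (11629496 to 11640851, minus). Ms4a4c, Ms4a6b and Ms4a6c each overlap 1 annotated gene on the opposite strand (Gm5692, Gm19261 and BE692007), and whether counting used the strand was not given in the sources used here, so reads of these pairs may not be told apart.

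Start regions were available for 7 of the 8 members from RefSeq (GRCm38.p6, 250 bases before to 50 after the start, 300 in all). The 4 below are shown because they are the closest pairs among the members, Ms4a6b with Ms4a6c and Ms4a4b with Ms4a4c, while the levels within each pair differed several-fold. Each is on the plus strand of chromosome 19 and is written 5′ to 3′; capitals mark the longest run of bases that the pair shares. The windows are chr19:11518309-11518608 for Ms4a6b, chr19:11469118-11469417 for Ms4a6c, chr19:11443308-11443607 for Ms4a4b and chr19:11407411-11407710 for Ms4a4c. The RefSeq starts of Ms4a6b (11518559) and Ms4a4c (11407661) lie well inside the longer GENCODE genes.
Ms4a6b: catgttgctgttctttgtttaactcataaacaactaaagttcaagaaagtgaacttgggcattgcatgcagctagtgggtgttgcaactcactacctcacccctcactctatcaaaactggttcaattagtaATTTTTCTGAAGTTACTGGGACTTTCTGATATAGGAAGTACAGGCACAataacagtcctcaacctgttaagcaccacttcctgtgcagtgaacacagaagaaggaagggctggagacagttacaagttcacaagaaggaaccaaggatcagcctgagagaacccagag
Ms4a6c: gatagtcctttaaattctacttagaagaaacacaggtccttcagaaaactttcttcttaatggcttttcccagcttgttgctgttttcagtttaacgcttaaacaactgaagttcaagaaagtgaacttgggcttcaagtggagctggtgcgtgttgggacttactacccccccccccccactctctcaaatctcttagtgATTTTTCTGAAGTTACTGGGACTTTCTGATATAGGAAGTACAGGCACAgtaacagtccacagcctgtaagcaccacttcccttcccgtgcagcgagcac
Ms4a4b: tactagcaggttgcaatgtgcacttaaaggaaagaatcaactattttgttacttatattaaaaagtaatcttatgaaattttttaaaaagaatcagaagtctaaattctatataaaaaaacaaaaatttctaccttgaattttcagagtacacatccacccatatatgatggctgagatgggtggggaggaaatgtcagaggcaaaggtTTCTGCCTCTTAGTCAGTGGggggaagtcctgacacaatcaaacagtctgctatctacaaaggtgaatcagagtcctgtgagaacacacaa
Ms4a4c: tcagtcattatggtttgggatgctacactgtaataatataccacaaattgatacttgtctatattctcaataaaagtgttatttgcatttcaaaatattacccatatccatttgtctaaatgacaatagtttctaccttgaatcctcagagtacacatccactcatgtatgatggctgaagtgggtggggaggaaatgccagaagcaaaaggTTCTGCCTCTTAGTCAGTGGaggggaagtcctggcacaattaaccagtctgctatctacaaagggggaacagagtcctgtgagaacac
In the Ms4a6 pair the shared run has 48 bases and begins at -118 in Ms4a6b and at -49 in Ms4a6c, counted from the start, and the windows were identical at 51.2% of aligned positions. The Ms4a4 pair was identical at 72.1% of positions with a longest shared run of 20 bases. The other pairs of members with an entry lay between 44.3% and 50.7%.

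The GAGGAA core bound by PU.1, a transcription factor of myeloid cells, was searched on both strands. It was found in the windows of Ms4a7 (at +43), Ms4a4c (at -61), Ms4a4b (at -64) and Ms4a3 (at +35), and not in those of Ms4a6b, Ms4a6c or Ms4a4a. Of all 32851 promoters in the table, 28.3% hold it. The interferon response motif, GAAA followed by any 2 bases and GAAA, was in none of the 7 windows (3.44% of all promoters), and TATAAA was in that of Ms4a4b at -140 (13.6% of all). The motifs do not overlap each other in these windows, and a match is a description of letters only.

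Levels differed far more between members than between genotypes. RPKM is scaled to gene length, so levels can be set beside each other across genes. Ms4a6b was the most abundant member in all 10 libraries and Ms4a6d came next, with Ms4a6b at 1.18 to 1.81 times Ms4a6d within a library. Ms4a6d in turn was at 2.97 to 6.78 times Ms4a6c in every library. Ms4a6c and Ms4a7 were neighbours whose ranges overlapped, with Ms4a6c higher in 8 of 10 libraries. Ms4a7 was above Ms4a4c, and Ms4a4c above Ms4a4b, in all 10. The 7 members with a row summed to 69.0 to 88.9 RPKM per library, of which Ms4a6b made up 44.0% to 56.5%.

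**Figure D1:**
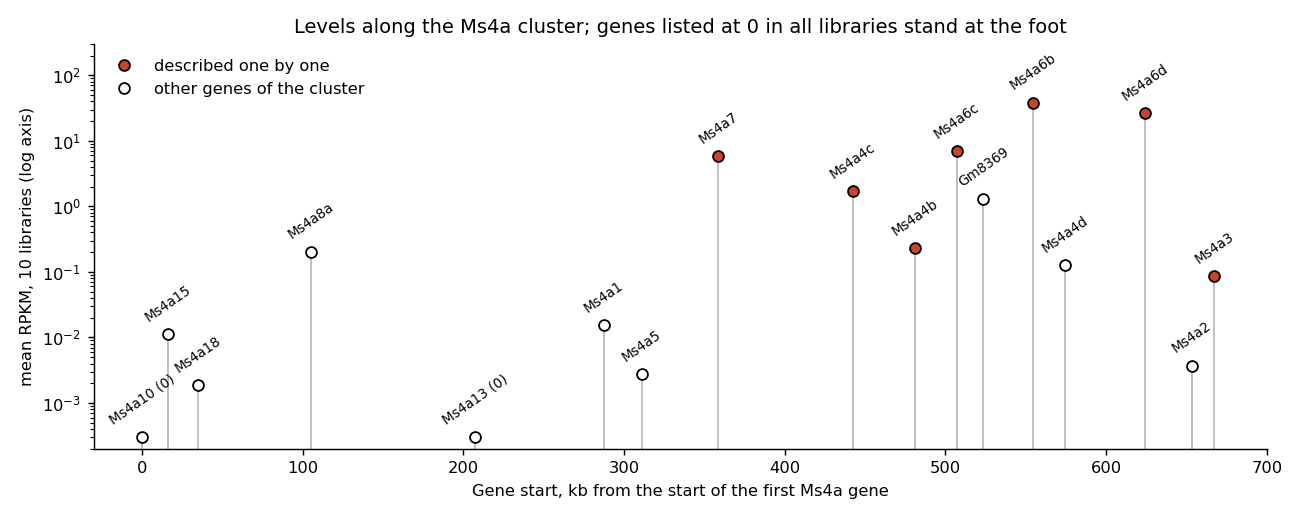
Mean RPKM over 10 libraries (log axis) of Ms4a genes and Gm8369 by the distance of the gene's start from the first Ms4a gene, in kb. Filled points are the members and open points other genes of the cluster; Ms4a6b and Ms4a6d stand highest, and Ms4a10 and Ms4a13, listed at 0 in all libraries, are drawn at the foot.

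The other Ms4a genes of the cluster were near 0. There were 9 such rows, of which none passed the filter, and their highest value in any library was 0.526 RPKM, for Ms4a8a. Ms4a1, which encodes the B cell antigen CD20, reached at most 0.0432 RPKM, and Ms4a2, the beta chain of the high-affinity IgE receptor of mast cells and basophils, at most 0.0191. The predicted gene Gm8369, which lies between Ms4a6c and Ms4a6b, passed the filter and was at log2 0.01 in KO against WT (SE 0.30, 95% interval -0.65 to 0.67, limma with Benjamini-Hochberg adjustment, adjusted p = 0.999). Tmem176a and Tmem176b, related channel-like proteins encoded elsewhere in the genome, stood far higher. Tmem176a was at 122 ± 7.81 RPKM in WT (SD, n = 4), 149 ± 13.5 in Het (SD, n = 3) and 140 ± 31.3 in KO (SD, n = 3), and did not pass the test (Het against WT, log2 0.30, limma, Benjamini-Hochberg adjusted p = 1.000).

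Genotypes were compared with limma on log2(RPKM + 0.5), with sex as a term, and a gene was called at a Benjamini-Hochberg adjusted p under 0.05 over all 13621 genes. Of the 5 tested members, 0 were called in KO against WT (0.00734% of all genes were called), in Het against WT (0%), in KO against Het (0.00734%) or in females against males (0.044%). The 1 gene called in KO against WT, and the 1 in KO against Het, was Trem2. At an unadjusted p under 0.05, Het against WT had 375 genes (2.75%) and KO against Het 456 (3.35%), with 0 of the 5 members in either, and limma-voom on the recovered reads called 1 gene in Het against WT, Trem2. KO against WT and Het against WT share the same 4 WT libraries, so their values are set side by side and not counted as separate evidence.

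Fold changes of the members were mostly positive. In KO against WT all 5 tested members had a positive log2 difference, against 57.2% of all genes, with a median of 0.29 against 0.03. For Het against WT the count was 4 of 5, against 50.3% of all genes (median 0.22 against 0.00). In KO against Het it was 4 of 5, against 57.1% (median 0.21 against 0.03), and under median-ratio scaling of the libraries Ms4a7 changed sign there. These medians depended on single libraries: without WT library 4 they were 0.14 in KO against WT and 0.06 in Het against WT. In KO against WT the median was also 0.47 without KO library 6, with 4 of 5 positive, and 0.18 without KO library 12. In KO against Het it was 0.11 without KO library 9. The counts moved too: in Het against WT the count was 3 of 5 without Het library 8. In KO against Het it was 3 of 5 without WT library 1 and without WT library 4. At an unadjusted p under 0.05, 2 of 5 members were higher and 0 lower in KO against WT, namely Ms4a4c and Ms4a6c. That share was 5.13% among all genes, 3.32% higher and 1.81% lower (452 and 247 genes; 362 and 334 under median-ratio scaling).

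**Figure D2:**
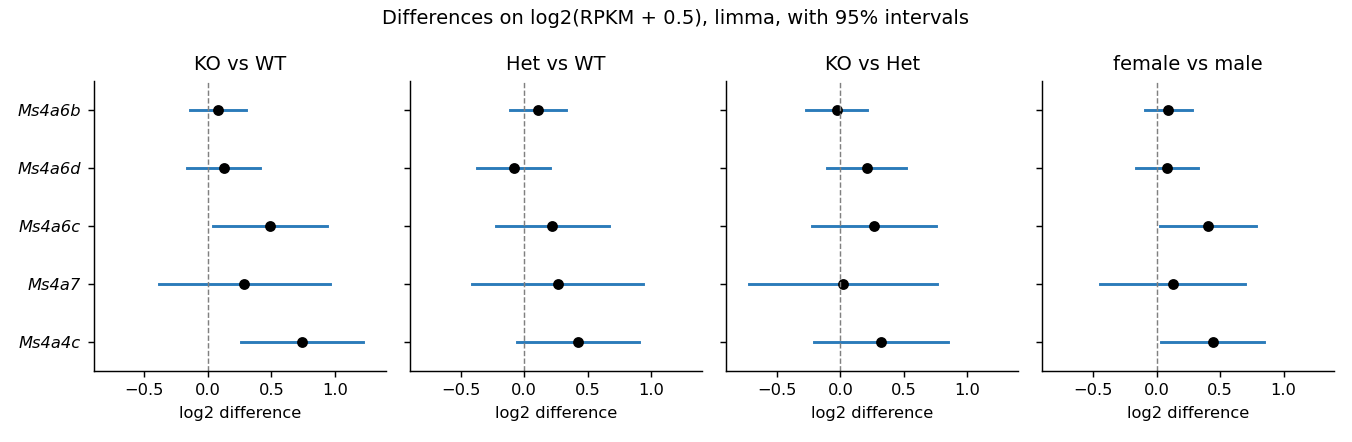
Log2 differences of the 5 tested members on log2(RPKM + 0.5) from limma, with 95% intervals as lines, for the 3 genotype comparisons and for females against males. In KO against WT the intervals of Ms4a4c and Ms4a6c lie above 0, at 0.26 to 1.22 and 0.04 to 0.93, before any adjustment over genes.

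Ms4a6b, the most abundant member, varied least. It stood at 34.3, 39.0, 37.0 and 37.2 RPKM in WT libraries 1, 4, 7 and 10, at 42.2, 36.5 and 42.0 in Het libraries 5, 8 and 11, and at 43.5, 37.6 and 34.9 in KO libraries 6, 9 and 12. The highest value was in KO library 6 and the lowest in WT library 1, and all 3 genotypes overlapped. Group means were 36.8 ± 1.94 in WT (SD, n = 4), 40.2 ± 3.20 in Het (SD, n = 3) and 38.7 ± 4.39 in KO (SD, n = 3), and Ms4a6b had a higher mean than 89.6% of all tested genes. The KO against WT difference was 0.08 on the log2 scale (SE 0.10, 95% interval -0.14 to 0.30, limma, Benjamini-Hochberg adjusted p = 0.999), an interval of 0.908-fold to 1.23-fold. Het against WT gave 0.11 (95% interval -0.11 to 0.33). In bulk RNA of this kind, fewer cells of a type and less RNA per cell cannot be told apart.

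Ms4a6d encodes a macrophage protein that has been described as a partner of the complement receptor VSIG4. It was at 28.1, 22.7, 28.4 and 25.3 RPKM in WT libraries 1, 4, 7 and 10, at 23.2, 22.2 and 29.4 in Het libraries 5, 8 and 11, and at 27.5, 31.8 and 25.4 in KO libraries 6, 9 and 12. KO library 9 was highest, Het library 8 lowest, and the genotypes overlapped. The means were 26.1 ± 2.65 (WT, SD, n = 4), 24.95 ± 3.90 (Het, SD, n = 3) and 28.2 ± 3.27 (KO, SD, n = 3). Ms4a6d was the single tested member with a negative difference in Het against WT, -0.08 on the log2 scale (95% interval -0.37 to 0.20; -0.00312 without Het library 8 and -0.19 without Het library 11), and KO against WT was 0.12 (SE 0.13, 95% interval -0.16 to 0.41). The difference of 0.12 became 0.02 without KO library 9.

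Ms4a6c stood far below its neighbour Ms4a6b and varied more between libraries. Its values were 6.58, 3.35, 6.63 and 7.84 RPKM in WT libraries 1, 4, 7 and 10, then 7.70, 5.94 and 8.32 in Het libraries 5, 8 and 11, and 8.78, 6.80 and 8.55 in KO libraries 6, 9 and 12. WT library 4 stood below all others, and the genotypes overlapped, since WT library 10 exceeded KO library 9. Means were 6.10 ± 1.92 in WT (SD, n = 4), 7.32 ± 1.23 in Het (SD, n = 3) and 8.04 ± 1.08 in KO (SD, n = 3). The KO against WT difference was 0.49 on the log2 scale (SE 0.20, 95% interval 0.04 to 0.93, unadjusted p = 0.0342, limma with Benjamini-Hochberg adjusted p = 0.969) and did not pass. It was 0.26 without WT library 4 and 0.65 without WT library 7. Among the 4 deeper libraries the KO mean was 0.978 times the single WT value, and among the 6 shallower ones the single KO value was 1.59 times the WT mean. The deeper KO libraries were male and the deeper WT library female, while the shallower KO library was female, so these ratios also differ in sex. The monocyte marker sum, 110 to 234 RPKM over the libraries, was lowest in WT library 4 as well. Nr4a1 was the largest part of that sum in each library, at 68.6 RPKM in WT library 4 and 178 in Het library 8. The sum thus follows a single gene to a large extent. With it Ms4a6c had r = 0.675 (n = 10, permutation p = 0.0453, adjusted p = 0.322 over 64 relations, and rho = 0.345, permutation p = 0.329, adjusted p = 0.639) and 0.644 without WT 4 and Het 8, and its part was not tested.

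Ms4a6b and Ms4a6c, the pair with the shared 48-base run, were weakly correlated over the libraries. Over all 10 r was 0.18 on log2(RPKM + 0.5) (permutation p = 0.656, Benjamini-Hochberg adjusted p = 0.874 over 64 relations of members with each other and with marker lists; Spearman rho = 0.37, permutation p = 0.297, adjusted p = 0.614). It was 0.867 within the 5 female and -0.855 within the 5 male libraries, and 0.518 without WT 4 and Het 8, the farthest from the median of Ms4a6c. Their annotated coding transcripts share few stretches: 6.08% of the 50-base windows of Ms4a6c occur in Ms4a6b. The read length was not given in those sources.

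Ms4a7 is a gene of macrophages, low in resident microglia and high in the macrophages of the brain's borders, the meninges and perivascular spaces. It stood at 7.06, 2.96, 4.07 and 7.03 RPKM in WT libraries 1, 4, 7 and 10, at 6.68, 7.60 and 4.60 in Het libraries 5, 8 and 11, and at 4.68, 5.64 and 8.45 in KO libraries 6, 9 and 12. The lowest and the 3rd highest values were both WT, KO library 12 was highest, and the genotypes overlapped throughout. Means were 5.28 ± 2.09 in WT (SD, n = 4), 6.29 ± 1.54 in Het (SD, n = 3) and 6.26 ± 1.96 in KO (SD, n = 3). KO against WT was 0.29 on the log2 scale (SE 0.31, 95% interval -0.39 to 0.96) and Het against WT 0.26 (95% interval -0.41 to 0.94), both with Benjamini-Hochberg adjusted p = 0.999 or above by limma. The KO against WT value was 0.02 without WT library 4 and 0.63 without KO library 6.

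**Figure D3:**
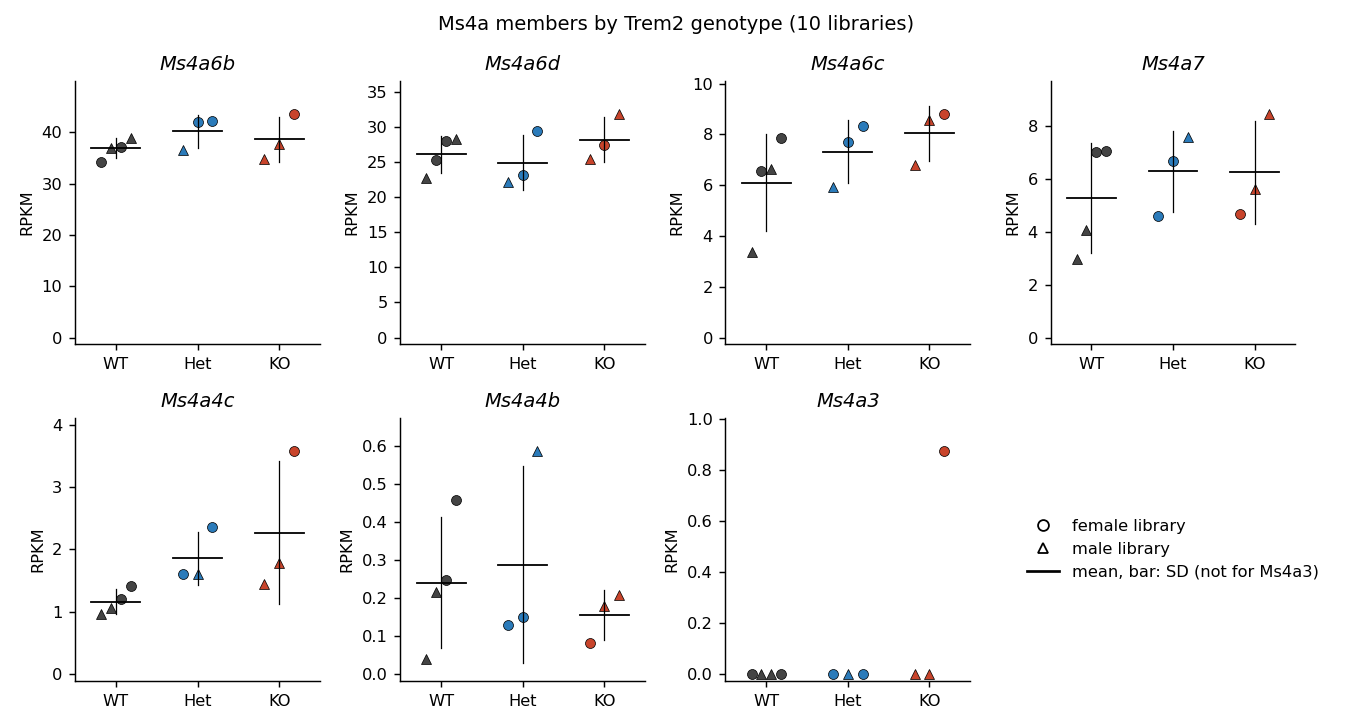
RPKM of the 7 members with a row, by genotype, 1 point per library (circles female, triangles male), with the mean and SD except for Ms4a3. Ms4a4c is the member whose Het and KO points all lie above the WT points, and Ms4a3 is above 0 in KO library 6 alone.

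Ms4a7 followed the border macrophage markers from library to library. The 9 markers (Mrc1, Cd163, Pf4, Lyve1, Cbr2, F13a1, Siglec1, Folr2 and Clec4n) were all listed and tested, none was at 0 in all libraries, and they summed to 86.3 to 140.1 RPKM in WT, 106 to 176 in Het and 98.0 to 166 in KO libraries. The lowest sum was in WT library 4, as was the lowest Ms4a7, and the 6 libraries with the highest sums (Het 8, KO 12, Het 5, KO 9, WT 10 and WT 1) held the 6 highest values of Ms4a7, 5.64 to 8.45 RPKM. Mrc1, the mannose receptor and most abundant of the 9, ranged from 36.1 RPKM in WT library 4 to 72.5 in Het library 8.

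Over the 10 libraries Pearson's r between Ms4a7 and this sum was 0.921 (permutation p = 0.00023, Benjamini-Hochberg adjusted p = 0.0147 over 64 relations) and Spearman's rho 0.83 (permutation p = 0.0044, adjusted p = 0.141). The r was 0.935 without KO library 6, 0.877 without the 2 libraries farthest from the median sum (KO 6 and WT 4), 0.921 within the 6 shallower libraries, and 0.887 and 0.982 within the 5 female and 5 male libraries. The 4 deeper libraries are too few for a value. With the microglia marker sum, Ms4a7 went the other way (r = -0.826, permutation p = 0.00365, adjusted p = 0.0779; rho = -0.891, permutation p = 0.00122, adjusted p = 0.0781; r = -0.77 without Het 8 and KO 12, the farthest). These sums share a library's total, so they are not independent of each other. The 9 border markers had positive differences in 9 of 9 cases in Het against WT (median log2 0.27) and 8 of 9 in KO against WT (median 0.18), with 0 called. Leaving out single libraries, the Het median ran from 0.08 (without WT 4) to 0.48 (without Het 11) and the KO median from -0.06 (without WT 4, 4 of 9 positive) to 0.37 (without KO 6), and their part in the values of Ms4a7 was not tested.

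By sex the values of Ms4a7 ran in opposite directions. In females it was 7.06 and 7.03 RPKM in WT, 6.68 and 4.60 in Het and 4.68 in the single KO library, library 6. That library stood apart in its neutrophil markers, and without it no KO value in females is left. Males had 2.96 and 4.07 in WT, 7.60 in the single Het library and 5.64 and 8.45 in KO. WT was thus highest in females and lowest in males, with no overlap with the other genotypes in either sex. The share of all genes with such a separation was not worked out, so how common it is among genes is not known. In a fit with genotype effects within each sex, KO against WT was -0.54 in females and 0.90 in males on the log2 scale; the difference, males minus females, was 1.44 (SE 0.40, 95% interval 0.55 to 2.33, unadjusted p = 0.00492, limma with Benjamini-Hochberg adjusted p = 0.203; 14.9% of all genes were under 0.05 unadjusted). For Het against WT the difference between sexes was 1.35 (unadjusted p = 0.00731, adjusted p = 0.360, limma; 10.5% of genes). Neither passed. The border macrophage sums of the same libraries were 133.5 and 140.1 RPKM in female WT, 161 and 106 in female Het and 98.0 in female KO, and 86.3 and 108 in male WT, 176 in male Het and 143 and 166 in male KO. They ran the same way as Ms4a7 except in Het library 5, where the sum was above female WT, and their part in the difference between sexes was not tested.

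**Figure D4:**
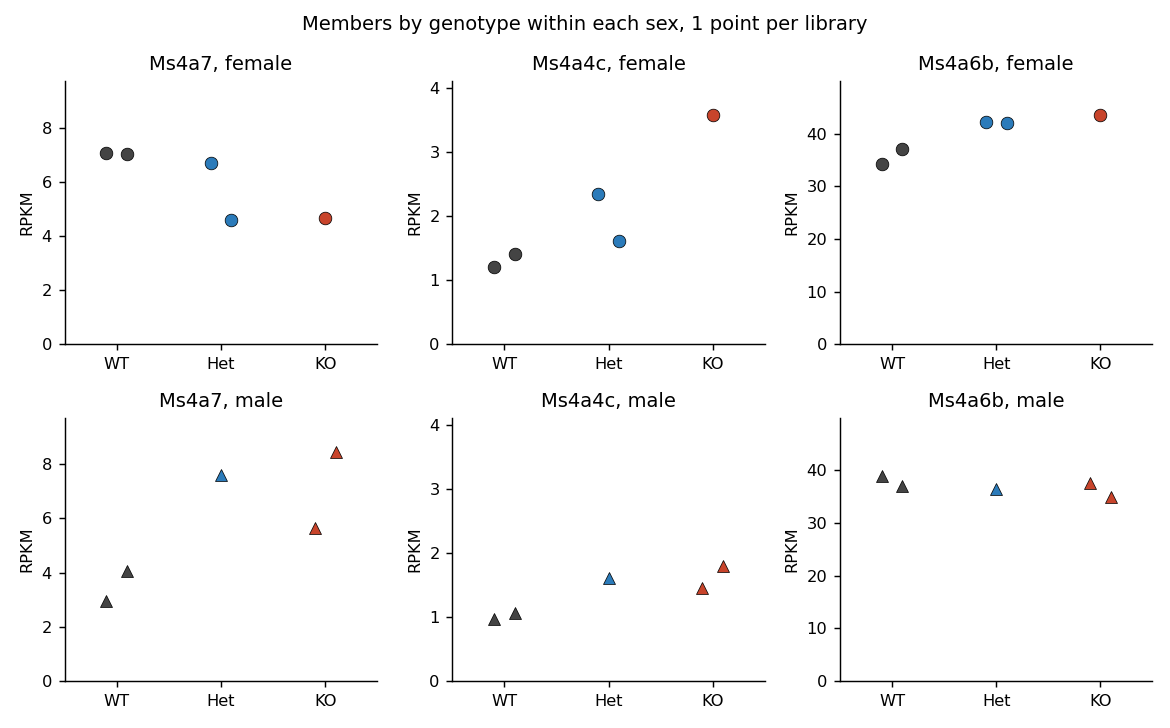
RPKM of Ms4a7, Ms4a4c and Ms4a6b by genotype, females above and males below, 1 point per library. Ms4a7 is highest in WT among females and lowest in WT among males; Ms4a4c is lowest in WT in both sexes.

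Ms4a4c had the widest difference of the 5 tested members in both comparisons with WT. The gene is expressed in monocytes and is among those that rise with interferon in myeloid cells. It stood at 1.21, 0.963, 1.07 and 1.42 RPKM in WT libraries 1, 4, 7 and 10, at 2.35, 1.61 and 1.61 in Het libraries 5, 8 and 11, and at 3.58, 1.45 and 1.79 in KO libraries 6, 9 and 12. All 3 Het and all 3 KO libraries lay above all 4 WT libraries, and Ms4a4c was the 1 tested member of 5 of which this held. Among all genes, 2.23% were higher without overlap in Het against WT, 2.99% in KO against WT and 0.418% in both.

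The separation was narrow at its edge. KO library 9, at 1.45 RPKM from 95 reads (95% exact Poisson interval 1.17 to 1.77), was barely above WT library 10, at 1.42 RPKM from 110 reads (1.16 to 1.71), and those intervals, which cover counting error only, overlap. Means were 1.16 ± 0.196 in WT (SD, n = 4), 1.86 ± 0.429 in Het (SD, n = 3) and 2.27 ± 1.14 in KO (SD, n = 3), so Het stood at 160% and KO at 195% of WT. In KO against WT the difference was 0.74 on the log2(RPKM + 0.5) scale, which understates changes at such low levels (SE 0.22, 95% interval 0.26 to 1.22, unadjusted p = 0.0059, limma, Benjamini-Hochberg adjusted p = 0.927), rank 83 of 13621 by p. Het against WT was 0.42 (SE 0.22, 95% interval -0.06 to 0.90, unadjusted p = 0.0787, limma adjusted p = 1.000). KO against Het was 0.32 (95% interval -0.21 to 0.84). Neither comparison with WT passed the adjusted threshold.

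KO library 6 carried much of the KO value. Without it KO against WT was 0.47 and KO against Het 0.02. Within females the KO value was 2.72 times the WT mean and within males 1.59 times; Het was at 1.51 and 1.59 times WT in the same order. By depth, KO was at 1.14 times and Het at 1.14 times the single WT value in the 4 deeper libraries, against 3.31 and 1.84 times in the 6 shallower ones, where KO is library 6 alone. Deeper KO libraries were male and the deeper WT and Het libraries female, while the shallower KO library was female. The KO ratios by depth therefore also differ in sex. With a term for depth in the fit, chosen after the data were seen, the adjusted p of Ms4a4c in KO against WT was 0.571 (limma, Benjamini-Hochberg), and it did not pass.

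Ms4a4c is set beside markers of neutrophils and interferon-inducible genes, neither of which it followed at an adjusted p under 0.05. Of 10 neutrophil markers 9 were listed (Ly6g was not analysed here) and 7 tested; none of the 9 was at 0 in all libraries. Their sums were 100.1 to 213.5 RPKM in WT, 139 to 348 in Het and 359 to 2244 in KO libraries, so that all KO libraries lay above all WT ones. Of the 7 tested, 7 had a positive difference in KO against WT (median log2 2.09), with 0 called; without KO library 6 it was 7 of 7 with a median of 1.05. With this sum Ms4a4c had r = 0.837 (n = 10, permutation p = 0.00628, Benjamini-Hochberg adjusted p = 0.1; rho = 0.709, permutation p = 0.0267, adjusted p = 0.276). The r was 0.538 without KO library 6 and 0.516 without KO 6 and WT 1, the farthest from the median, so its size over the 10 libraries rests in part on KO library 6. Within the male libraries, which do not hold KO library 6, r was 0.942, and within the female ones 0.957.

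The 15 interferon-inducible genes, of which Ifitm3 was the most abundant, were all tested and summed to 255 RPKM in KO library 6, 207 in WT library 10 and 139 to 172 in the other 8. With Ms4a4c r was 0.795 (n = 10, permutation p = 0.0102, adjusted p = 0.131, and rho = 0.709, permutation p = 0.0267, adjusted p = 0.276), 0.49 without KO library 6 and 0.826 without KO 6 and WT 10. Within the female and the male libraries r was 0.725 and 0.831. Of the list, 11 of 15 had a positive difference in KO against WT (median 0.19) and 4 of 15 in Het against WT (median -0.15), with 0 called in either. Without KO library 6 the KO against WT count was 6 of 15 and the median -0.11. The monocyte list, with 10 genes listed and 8 tested, summed to 110 to 198 RPKM in WT, 156 to 234 in Het and 158 to 229 in KO. Nr4a1 was the largest part of that sum in each library. The part of these cells and genes in the values of Ms4a4c was not tested.

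**Figure D5:**
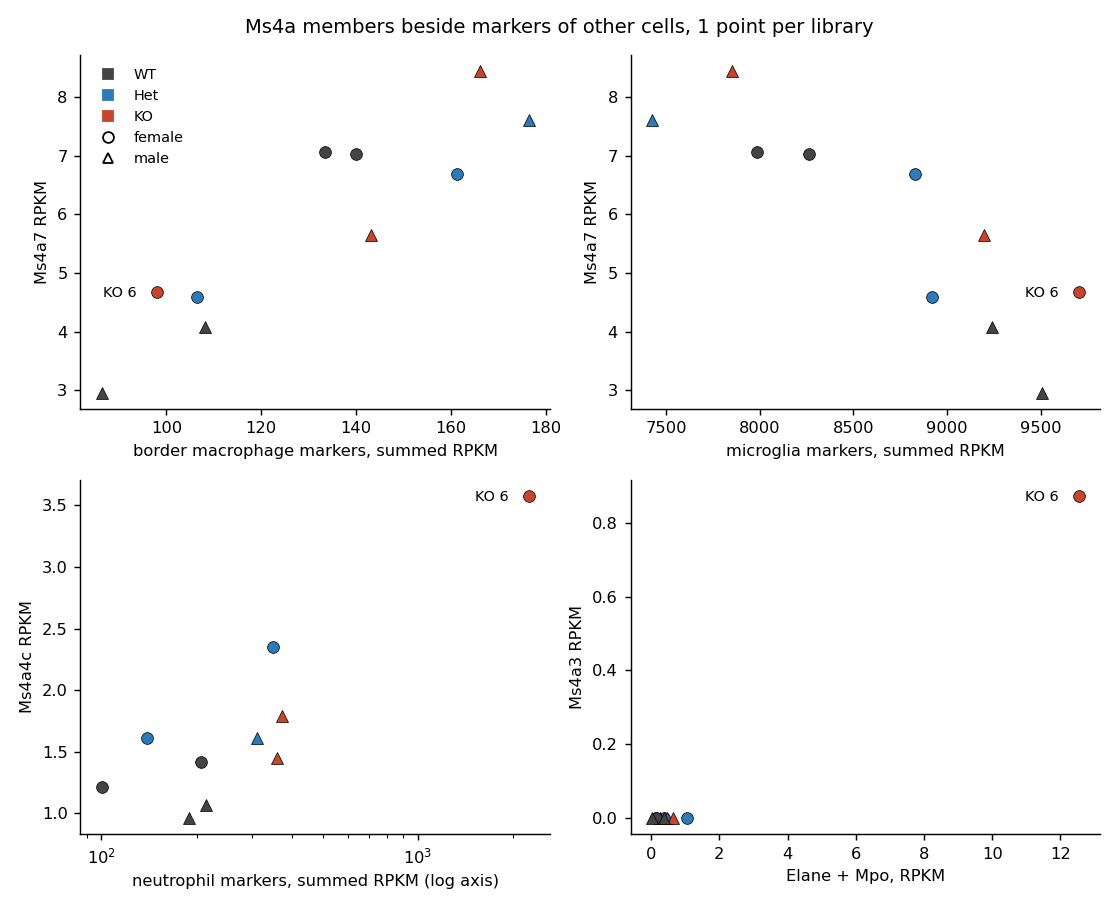
Members beside summed markers, 1 point per library (colour for genotype, circle female, triangle male): Ms4a7 with border macrophage and microglia markers, Ms4a4c with neutrophil markers (log axis) and Ms4a3 with Elane plus Mpo, all in RPKM. Ms4a7 is higher where the border macrophage sum is higher, and KO library 6 stands alone in both lower panels.

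Ms4a4b, a protein of T cells that has been described beside the co-stimulatory receptor GITR, was at the edge of detection. It was at 0.459, 0.0388, 0.215 and 0.247 RPKM in WT libraries 1, 4, 7 and 10, at 0.129, 0.586 and 0.150 in Het libraries 5, 8 and 11, and at 0.0823, 0.208 and 0.178 in KO libraries 6, 9 and 12, from 1 to 14 reads each. Het library 8 and WT library 1 were highest and the genotypes overlapped. No difference was detectable at this depth. T and NK cell markers, 9 listed and 2 tested, summed to 3.03 to 5.68 RPKM. Most of that sum was Cd4 in each library, at 2.17 to 4.60 RPKM. With the T and NK sum Ms4a4b had r = 0.326 (n = 10, permutation p = 0.359, Benjamini-Hochberg adjusted p = 0.604 over 64 relations). With the microglia sum r was -0.81 (permutation p = 0.00312, adjusted p = 0.0779) and rho -0.697 (permutation p = 0.0301, adjusted p = 0.276). The part of these cells in values from so few reads was not tested. The closest start region to that of Ms4a4b among the members is that of Ms4a4c, printed above, and 2.85% of the 50-base windows of its coding transcripts occur in Ms4a4c.

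Ms4a3 is known from granulocyte and monocyte progenitors of the bone marrow, and is used to mark cells that descend from them. It was listed at 0 in 9 of 10 libraries and at 0.872 RPKM in KO library 6. That value corresponds to an estimated 25.3 to 31.7 reads, depending on which annotated length is used. In the 9 libraries at 0, 3 reads would have been 0.0443 to 0.113 RPKM, the level that a count of 0 allows. KO library 6 was also the library in which Elane, a protease of early neutrophil granules, was at 6.53 RPKM (0 to 0.849 in the other 9) and Mpo, myeloperoxidase, at 6.02 (0.0192 to 0.537 in the other 9). Of the 10 monocyte markers, 7 were highest in KO library 6, among them Ly6c2 at 5.82 RPKM (0.487 to 1.38 elsewhere), and Ccr2, Ace and Nr4a1 were not. A difference between genotypes that rests on 1 library of 3 has no replicate, and the part of such cells in it was not tested.

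Sex was the other label. Against males, females had positive differences in 5 of 5 tested members, against 56.7% of all genes (median 0.13 against 0.03). The median was 0.24 without KO library 6, 0.24 without KO library 12, 0.23 without Het library 11 and 0.35 without Het library 8. It was 0.11 without Het library 5. The count was 4 of 5 without WT library 1 or WT library 4, and Ms4a7 turned negative without WT library 1, 4 or 10. Among all genes 5.34% had an unadjusted p under 0.05 by limma, with 3.51% higher and 1.83% lower (478 and 249 genes, or 345 and 369 under median-ratio scaling). Of the 5 members 2 did, both higher. Those were Ms4a4c (log2 0.44, SE 0.18, unadjusted p = 0.0352) and Ms4a6c (log2 0.41, SE 0.17, unadjusted p = 0.0373), both with a Benjamini-Hochberg adjusted p of 0.919 by limma. Ms4a4c was at 2.03 ± 0.965 RPKM in females (SD, n = 5) and 1.38 ± 0.353 in males (SD, n = 5), and the sexes overlapped. Without KO library 6 its difference was 0.24. The interferon-inducible list was higher in females in 15 of 15 genes (median log2 0.42; 14 of 15 and 0.28 without KO library 6), with 0 called, and its part in these values was not tested.

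The genes around the members were examined as well. Of 35 listed genes that are no members and lie within the cluster or 250 kb beside it, 13 were tested. In KO against WT 0 of these were higher and 2 lower at an unadjusted p under 0.05, against the 3.32% higher and 1.81% lower of all genes given above, with a median log2 difference of -0.02. The 2 were Tmem132a, a membrane protein gene (log2 -0.38, unadjusted p = 0.0265), and the noncoding gene AW112010 (log2 -0.47, unadjusted p = 0.0470). Het against WT had 0 in both directions, with a median of -0.10. None passed the adjusted threshold of limma.

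The genes most like each member over the 10 libraries, by Pearson's r on log2(RPKM + 0.5) among 13620 others, are given as a description, since they were selected as the highest of so many. For Ms4a4c they were Crlf3 (r = 0.966), 1700047M11Rik (0.943) and Slfn4 (0.943), a schlafen gene of myeloid cells that ranged from 0.280 to 6.76 RPKM. Nearest to Ms4a7 were Hspa14 (r = 0.977), Bmp2 (0.964) and Il4ra (0.956), a receptor chain for interleukin-4. Ms4a6b was closest to Nrep (0.958), 1700012D14Rik (0.949) and Srsf2 (0.937). For Ms4a6c the leading genes were Pus1 (0.960), Ccdc112 (0.947) and Rgmb (0.944), and for Ms4a6d they were Selo (0.967), Zic2 (0.954) and Fcrl1 (0.911). No gene appeared in the leading 3 of more than 1 member.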

How the data were processed

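The members and all lists were chosen with earlier results of these data known. The deposited files hold RPKM per gene, computed by the authors, 1 file per library with 24060 names on a linear scale. The submitters' processing notes name STAR, HTSeq, edgeR, limma and mm10; versions, order, annotation and strand were not given in the sources used here. Names turned into dates (27) were left out. Library construction amplified cDNA, per the labels' protocols, so reads are not independent molecules and intervals from reads cover counting error only.

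Whole reads were recovered from the RPKM steps for 99.995% of genes above 0 (tolerance 0.003 reads), giving 16.92 M to 43.3 M (megareads) per library, and were used for depth, counting intervals and 1 alternative. A gene above 0 in only 1 library always passes this step, as 1 read, so the percentage is not a rate of correct recovery. Ms4a3 is such a gene, and its reads were estimated from annotated lengths instead. The main test was limma 3.58.1 in R 4.3.3 (limma-trend) on log2(RPKM + 0.5), pseudocount 0.5, for genes at 0.5 RPKM or more in at least 3 libraries (13621), over all 10 libraries with genotype and sex as terms, two-sided, with Benjamini-Hochberg adjustment over all genes tested. The fit was tested on simulated data. Relations over libraries used two-sided permutation tests with 100000 permutations, adjusted over 64 relations. A planned comparison of the members' proteins was not made.

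The genes named are the members, other Ms4a rows, Tmem176a and Tmem176b, Trem2, neighbours at an unadjusted p under 0.05, the 3 genes most like each tested member, and markers from lists. Of the markers, Mrc1, Elane, Mpo, Ly6c2, Nr4a1 and Cd4 were singled out after their values were seen. From the interferon list, 1 gene, part of its sums, is not reported by itself. Alternatives were pseudocounts of 0.1 and 1, no filter and a filter at 1 RPKM, no sex term, median-ratio scaling, sample quality weights, a fit to the compared genotypes alone, limma-voom on recovered reads and leaving out each library; a depth term, effects within each sex and list counts without each library were added after seeing the data.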

Additional observations from a re-analysis of the deposited data

Results flagged for a closer look

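Point estimates of genotype effects against WT had opposite signs in females and males for 2 members, which were flagged for this. None of these differences between the sexes passed the adjusted threshold. For Ms4a7, every KO and Het library lay below the WT libraries in females and above them in males; the difference of the effects, males minus females, was 1.44 on the log2 scale in KO against WT (limma, Benjamini-Hochberg adjusted p = 0.203) and 1.35 in Het against WT (adjusted p = 0.360), which do not pass. For Ms4a6b in Het against WT, both female Het libraries (42.2 and 42.0 RPKM) lay above the female WT libraries (34.3 and 37.2), and the male Het library (36.5) lay below the male WT libraries (39.0 and 37.0). That difference was -0.29 (SE 0.17, 95% interval -0.68 to 0.10, limma adjusted p = 0.584). In KO against WT Ms4a6b was at 0.28 in females and -0.07 in males, a difference of -0.35 (unadjusted p = 0.0724, limma adjusted p = 0.386), with KO and WT overlapping in males. The only female KO library is KO 6 and the only male Het library is Het 8, so each rests on single libraries. For neither member was the share of all genes with a like separation within the sexes worked out.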

How the results depend on the processing

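No member was called in any of the 390 alternative fits of a member and comparison, and 374 kept the direction of the value reported. The number of genes called in KO against WT was 1, and it was 2 with sample quality weights, with limma-voom on recovered reads and with a depth term, and 1 to 3 when single libraries were left out (3 without KO library 6). In Het against WT it was 0, 1 with limma-voom, and 0 to 0 in the fits that left out a library. The log2 difference of Ms4a7 in KO against Het was -0.0199 without the sex term, -0.00862 with median-ratio scaling, -0.176 with the compared genotypes alone and -0.0455 with a depth term, and ran from -0.202 to 0.41 when libraries were left out. Ms4a6b in KO against Het was 0.0178 with the compared genotypes alone and -0.128 to 0.0229 when libraries were left out. The leave-out ranges that crossed 0 were -0.00944 to 0.136 for Ms4a6b in KO against WT, -0.0302 to 0.478 for Ms4a7 in Het against WT, and -0.0722 to 0.386 for Ms4a7 in females against males. The causes were not tested. No paired analysis was made, because the labels give no pairing of libraries across genotypes. Depth limits Ms4a4c, with 34 to 124 reads per library, and Ms4a4b, with 1 to 14.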
